A study of Mus musculus with 27 samples.

Results

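The genes described here carry peptide presentation on major histocompatibility complex (MHC) class I molecules. They are B2m, Tap1, Tap2, Tapbp, Psmb8, Psmb9, Psmb10, Nlrc5 and Erap1, a pathway list matched to the table by symbol. The rule uses no measured value, but the list was drawn up with earlier results of these data known. All 9 were found among the 16024 genes of the expression table, and all 9 passed the filter on low values in each of the 5 comparisons of tumour with wild-type lung.

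The 27 RNA sequencing libraries came from lungs of C57BL/6 mice and form 10 groups. Tumour lungs carried HKP1 cells, a mouse lung cancer line given through the tail vein, and were taken between day 20 and day 25, while wild-type (WT) lungs had no tumour. The macrophage gate was CD11c+CD11b+ in tumour lung (n = 3) but CD11c+CD11b- in WT lung (n = 2), so that tumour and gate cannot be told apart in that comparison. Both states shared a gate for monocytes (CD11b+Ly6C+, 2 tumour and 2 WT libraries), for neutrophils (CD11b+Ly6G+, 3 and 3) and for epithelium (Epcam+CD11b-CD11c-, 3 and 3), beside preparations of total lung cells (3 and 3). Replicate numbers are those of the library titles, which run on across preparations. The injection is recorded for WT libraries too, whose time point label says that there was no tumour. HKP1 is 1 cell line, and the labels do not say whether the Epcam+ cells of tumour lung are HKP1 cells, host epithelium or both.

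MHC class I molecules show peptides from inside the cell to CD8 T cells. The proteasome cuts proteins into peptides, and interferon-inducible catalytic subunits can take the place of its constitutive ones to form the immunoproteasome. The TAP transporter carries the peptides into the endoplasmic reticulum, where ERAP1 trims them and tapasin helps to load them onto a heavy chain paired with beta-2 microglobulin. NLRC5 is a transactivator of MHC class I genes. Without beta-2 microglobulin class I heavy chains do not reach the surface properly, which makes loss of beta-2 microglobulin a known route of immune escape in tumours.

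Promoter windows were read for 7 of the 9 genes from RefSeq (build GRCm38.p6), each from 250 bases before the start used there to 50 bases after it. Those starts can differ from the GENCODE gene starts given below. The windows of Erap1, Psmb8 and Tapbp lie wholly inside the genes as positioned there. The windows of 4 are shown, 5′ to 3′ on the gene's own strand: B2m and Tap1, which moved in opposite directions in macrophages and neutrophils, Psmb10, which went against them in neutrophils, and Erap1, which changed in both populations in 1 direction. Capitals mark matches to any of 3 motifs, searched on both strands: the interferon-stimulated response element (GAAA, any pair of bases, GAAA), the gamma-activated site TTCNNNGAA and the kappaB motif (GGG, any pair of bases, TT, any base, CC).
B2m: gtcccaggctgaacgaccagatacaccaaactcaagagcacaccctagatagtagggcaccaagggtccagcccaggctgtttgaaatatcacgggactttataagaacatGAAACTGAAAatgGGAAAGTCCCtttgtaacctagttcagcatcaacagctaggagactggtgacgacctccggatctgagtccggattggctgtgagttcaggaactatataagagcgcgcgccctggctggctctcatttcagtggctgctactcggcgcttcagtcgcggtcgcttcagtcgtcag
Tap1: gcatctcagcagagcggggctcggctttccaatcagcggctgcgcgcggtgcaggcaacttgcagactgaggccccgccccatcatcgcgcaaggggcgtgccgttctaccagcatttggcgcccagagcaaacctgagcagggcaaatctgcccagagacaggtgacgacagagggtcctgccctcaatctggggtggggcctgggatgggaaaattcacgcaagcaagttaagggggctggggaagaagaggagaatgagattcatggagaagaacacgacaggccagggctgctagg
Psmb10: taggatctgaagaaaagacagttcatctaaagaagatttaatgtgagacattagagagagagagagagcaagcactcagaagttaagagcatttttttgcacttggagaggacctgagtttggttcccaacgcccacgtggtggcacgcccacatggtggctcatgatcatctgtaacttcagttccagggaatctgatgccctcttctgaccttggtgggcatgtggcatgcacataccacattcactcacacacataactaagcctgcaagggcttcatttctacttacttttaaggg
Erap1: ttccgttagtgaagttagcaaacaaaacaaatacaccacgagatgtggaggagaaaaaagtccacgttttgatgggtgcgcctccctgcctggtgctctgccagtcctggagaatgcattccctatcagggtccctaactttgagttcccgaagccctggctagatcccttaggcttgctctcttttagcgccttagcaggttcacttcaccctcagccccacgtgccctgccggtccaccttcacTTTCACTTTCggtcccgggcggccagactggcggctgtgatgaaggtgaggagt
The windows lie at chr2:122147437-122147736 (+ strand) for B2m, chr17:34187306-34187605 (+) for Tap1, chr8:105938343-105938642 (-) for Psmb10 and chr13:74639603-74639902 (+) for Erap1. B2m held a response element, GAAACTGAAA, at bases 112 to 121 of its window and a kappaB match on the other strand, GGAAAGTCCC, at bases 125 to 134, so the matches stand side by side without overlapping. Erap1 held a response element on the other strand, TTTCACTTTC, at bases 247 to 256. Psmb8, whose window is not shown, held a gamma-activated site, TTCCCAGAA, at bases 154 to 162. No match was found in the windows of Tap1, Tapbp, Psmb9 and Psmb10, which says only that these letters are not in these 300 bases. Among all 32817 promoter windows, 3.43% held the response element, 8.29% the gamma-activated site and 4.8% the kappaB motif. The Tap1 and Psmb9 windows are largely 1 stretch of DNA read on opposite strands, with 275 of their 300 bases shared.

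Levels are given in FPKM, fragments scaled by transcript length and by the mapped fragments of the library, as the authors deposited them, and genes can be compared with each other because the unit is per length. B2m was among the most abundant messages in every library, ranking between 3 and 103 of all genes. Nlrc5, which ranked between 2633 and 9726, or Erap1 had the lowest mean of the 9 in every group. Monocytes stood highest for most of the genes and Epcam+ cells lowest, as the plot of levels shows. Monocyte libraries also held markers of other cells. T and NK cell markers (5 of 6) summed to 154 to 248 FPKM in tumour and 137 to 327 FPKM in WT monocytes. Endothelial markers (4 of 4) summed to 63.8 to 175 FPKM in tumour and 358 to 584 FPKM in WT monocytes. B cell markers (4 of 4) summed to 136 to 139 FPKM in tumour and 144 to 207 FPKM in WT monocytes. Neutrophil markers (6 of 6) summed to 352 to 499 FPKM in tumour and, unevenly, 193 to 2640 FPKM in WT monocytes. Epithelial markers (6 of 6) summed to 62.4 to 102 FPKM in tumour and 639 to 1970 FPKM in WT monocytes, though Krt18 and Cdh1 ran the other way. The part of such cells in these levels was not tested. The highest group mean belonged to tumour monocytes for Tap1, Psmb8, Psmb9, Psmb10 and Nlrc5, to tumour macrophages for B2m, Tapbp and Erap1, and to WT total lung for Tap2. The lowest belonged to epithelial groups for 7 genes and to WT neutrophils for Psmb10 and Erap1. Psmb10 spanned the widest range of group means, 11.2-fold, followed by Nlrc5 with 7.47-fold and B2m with 6.05-fold. Tapbp varied least, 2.19-fold.

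**Figure D1:**
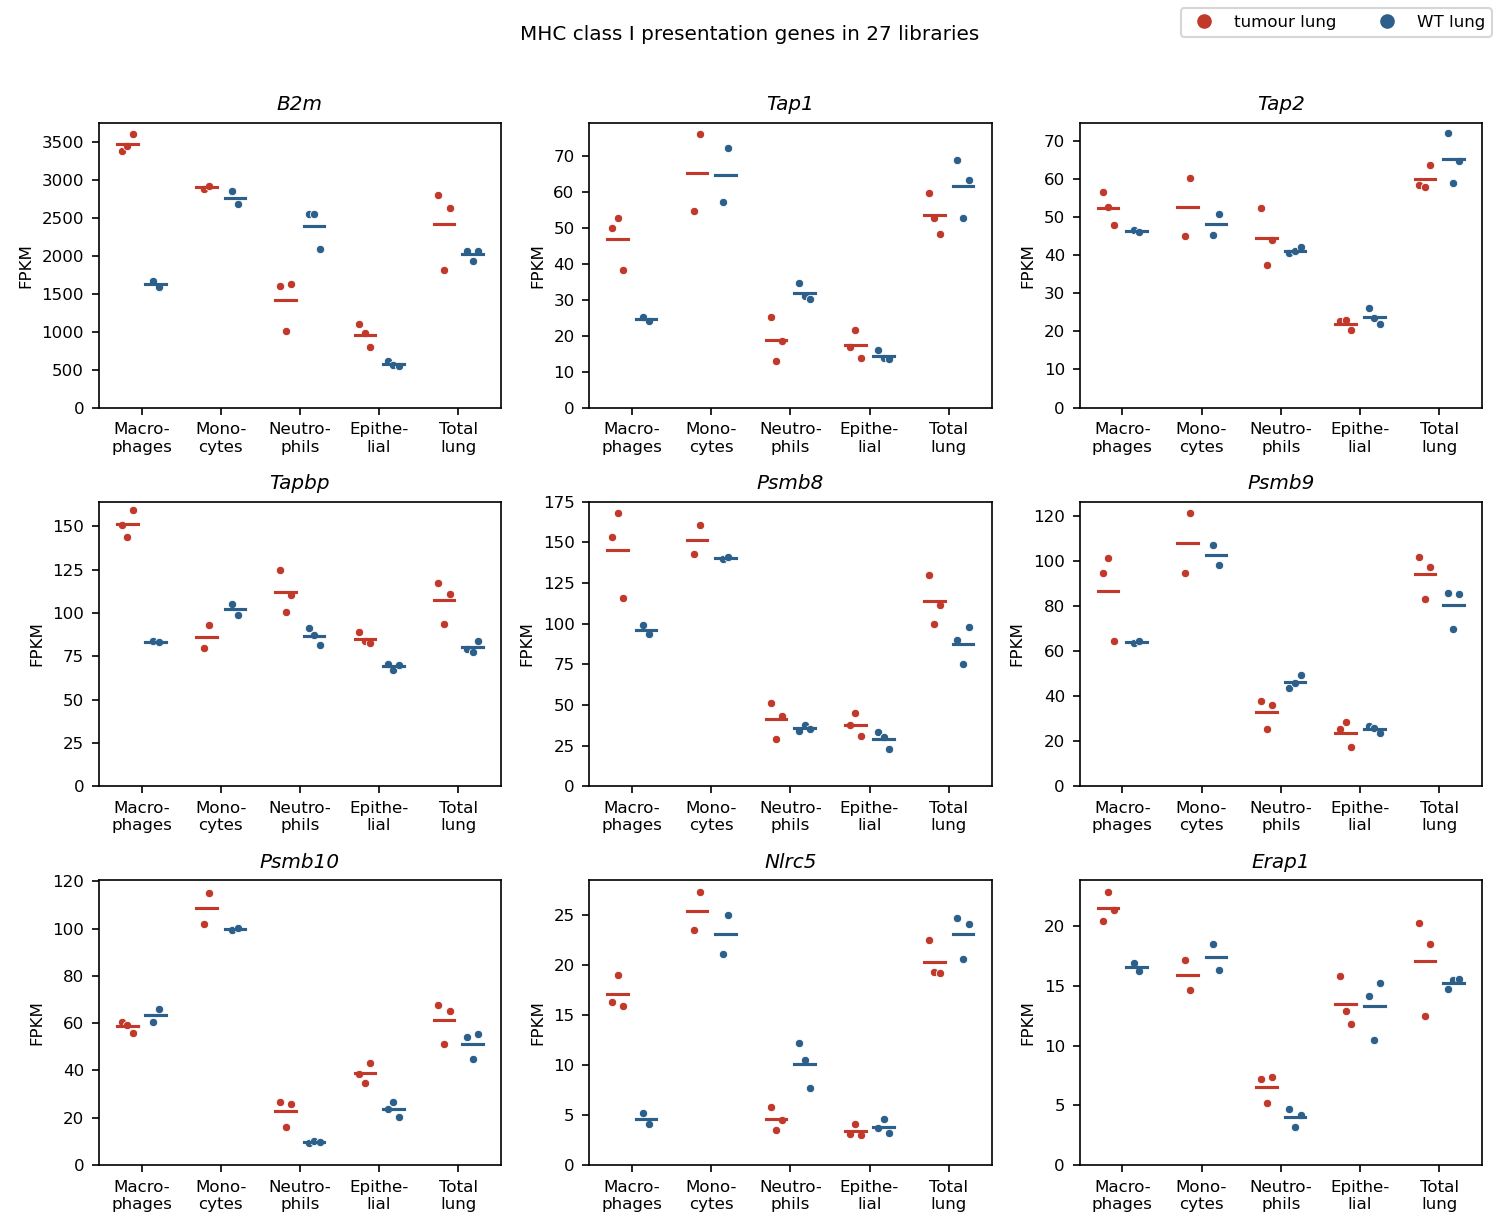
FPKM (linear axis from 0, a scale per gene) of the 9 MHC class I presentation genes in each of 27 libraries, by preparation, with tumour libraries left of WT libraries. Points are libraries and bars are group means. B2m reaches 3595 FPKM in tumour macrophages, the tumour points of Nlrc5 lie above the WT points in macrophages and below them in neutrophils, and Psmb10 is lowest in WT neutrophils at 9.45 to 9.97 FPKM.

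When groups are ordered by mean level, neighbours often could not be separated by their ranges. For Tap2 the ranges of 8 of 9 neighbouring pairs overlapped, and a step was seen only between WT neutrophils, at 40.5 to 42.0 FPKM, and the epithelial groups, at 20.4 to 26.2 FPKM. For Tap1 7 of 9 pairs overlapped, for Tapbp, Psmb9, Nlrc5 and Erap1 6 of 9, for Psmb8 5 of 9, for B2m 4 of 9 and for Psmb10 3 of 9. A moderated F test among the 4 sorted populations (limma) passed at an adjusted p under 0.05 for all 9 genes in tumour lung and for all 9 in WT lung. The same test passed for 94.1% of all genes in tumour lung and 93.5% in WT lung, so this says nothing particular to the 9.

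Tumour was compared with WT within each preparation by limma on log2(FPKM + 1), with p-values adjusted over all genes tested and a threshold of 0.05. Log2 changes are tumour minus WT on that scale, which understates changes of low genes. In macrophages 6 of the 9 were higher in tumour and none lower, where 37.9% of all 10119 genes tested passed, 20.3% higher and 17.7% lower. Without WT replicate 1, 1105 genes were higher and 673 lower in macrophages, and without WT replicate 2, 1160 and 685, against 2050 and 1788 with all libraries. In neutrophils 3 were higher and 4 lower, where 59.1% of 9349 genes passed, 33.3% higher and 25.8% lower. In epithelial cells 2 were higher and none lower, against 23.8% of 11823 genes, 14.9% higher and 8.89% lower. That all-gene count rests on single libraries: it was 1765 higher and 1051 lower with all of them, 386 and 104 without tumour replicate 9, 715 and 286 without tumour replicate 11, 499 and 129 without WT replicate 8, 1111 and 524 without WT replicate 9 and 755 and 180 without WT replicate 10. Leaving out tumour replicate 10 raised it, to 2420 and 1795. In total lung cells 1 was higher and none lower, against 42.5% of 11747 genes, 22.1% higher and 20.4% lower. In monocytes none of the 9 passed, nor did any of the 10366 genes tested (0%), with 744 genes higher and 815 lower at an unadjusted p under 0.05 and none of the 9 among them. Without tumour replicate 5, 161 genes passed as higher and 149 as lower in monocytes, again with none of the 9. The shares in neutrophils, epithelial cells and total lung cells lie near those of all genes or rest on 1 or 2 genes, and are read here only gene by gene. Library values of tumour and WT did not overlap, in either direction, for all 9 in macrophages, where this held for 63.7% of genes, for 7 in neutrophils (66.3% of genes), for 4 in monocytes (48.2%), for 3 in epithelial cells (46.5%) and for 2 in total lung cells (55.8%). In macrophages Psmb10 lay lower in tumour, with a highest tumour value of 60.64 FPKM and a lowest WT value of 60.65 FPKM. Psmb9 lay narrowly higher there, at 64.65 FPKM in its lowest tumour library and 64.39 FPKM in its highest WT library. The median log2 change of the 9 was 0.57 in macrophages, where that of all genes was 0.00, and 0.10 in neutrophils, where that of all genes was 0.11.

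**Figure D2:**
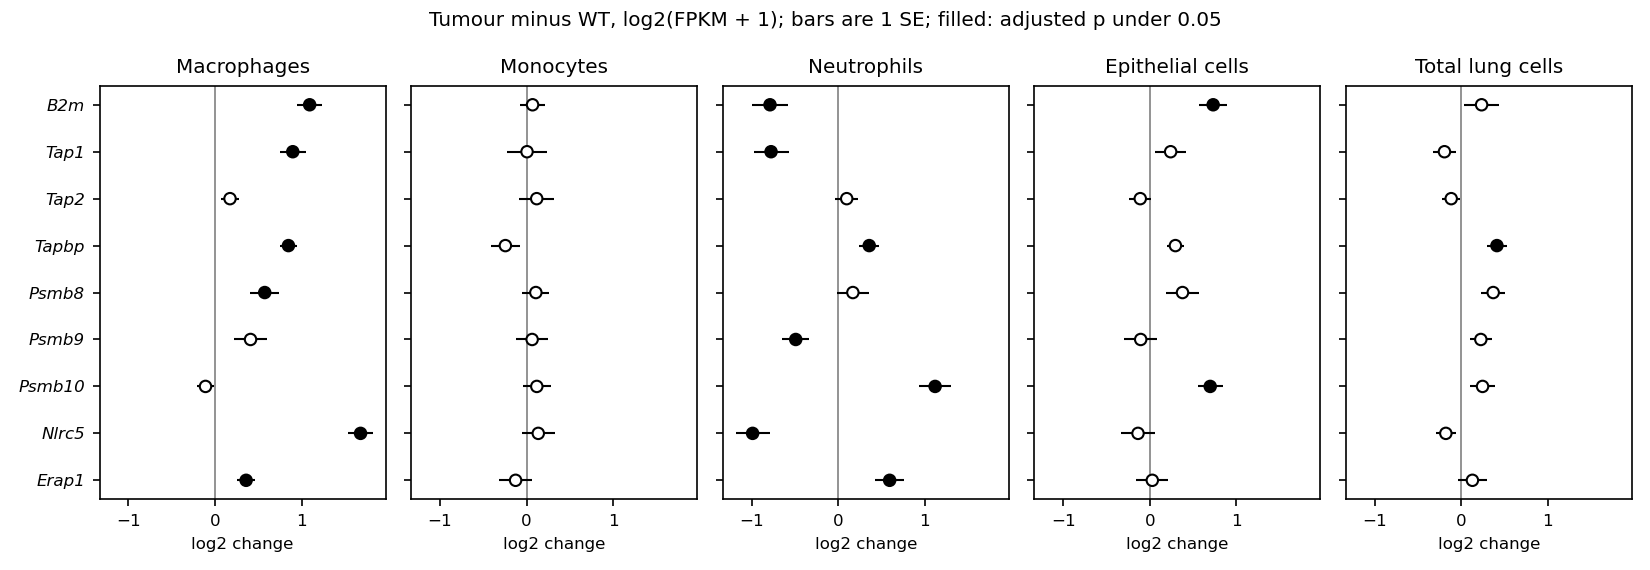
Log2 change of FPKM + 1 (tumour minus WT) of the 9 genes in each of the 5 preparations, with bars of 1 standard error and filled points for adjusted p under 0.05 in limma. B2m, Tap1 and Nlrc5 lie right of 0 in macrophages, at 1.09, 0.90 and 1.68, and left of it in neutrophils, at -0.79, -0.78 and -0.99.

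Nlrc5, the transactivator of class I genes, changed most among the 9 in macrophages. It lies on chromosome 8, from 94434356 to 94527272 on the + strand (GRCm38). Tumour macrophages held 16.3, 19.1 and 15.9 FPKM, against 5.20 and 4.10 FPKM in WT macrophages. Every tumour library lay far above both WT libraries. The log2 change was 1.68 (SE 0.14, limma adjusted p = 0.000216), a ratio of means of 3.68. Neutrophils went the other way, with 5.82, 3.52 and 4.48 FPKM in tumour neutrophils and 12.2, 10.5 and 7.68 FPKM in WT neutrophils. These ranges did not overlap either, and the log2 change was -0.99 (SE 0.20, adjusted p = 0.00258). Epithelial cells held little Nlrc5 in both states, 3.02 to 4.11 FPKM in tumour and 3.16 to 4.65 FPKM in WT. Total lung cells held 19.2 to 22.5 FPKM in tumour and 20.6 to 24.7 FPKM in WT. Monocytes held 23.5 and 27.3 FPKM in tumour and 21.1 and 25.0 FPKM in WT. The ranges overlapped in each of these 3 preparations. Both calls were kept under every alternative setting tried, but with a pseudocount of 5 the change in neutrophils was -0.65.

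Psmb8, Psmb9 and Psmb10 encode the inducible catalytic subunits LMP7, LMP2 and MECL-1, which replace the constitutive subunits of Psmb5, Psmb6 and Psmb7. They did not move as 1 block. Psmb10, on chromosome 8 at 105935735 to 105938444 (- strand), held 26.8, 16.0 and 25.7 FPKM in tumour neutrophils, against 9.45, 9.97 and 9.76 FPKM in WT neutrophils. The 3 WT libraries were close together and every tumour library lay above them, with a log2 change of 1.12 (SE 0.18, adjusted p = 0.00095). Psmb9, on chromosome 17 at 34181987 to 34187764 (- strand), held 37.8, 25.5 and 36.2 FPKM in tumour neutrophils and 43.5, 45.9 and 49.6 FPKM in WT neutrophils. It fell by 0.49 in log2 units (SE 0.15, adjusted p = 0.0226), with no overlap of the groups. That call was lost without WT replicate 6 (adjusted p = 0.0547) or WT replicate 7 (0.0625), and without tumour replicate 7, the lowest, the change was -0.32 (0.0393). Psmb8, on chromosome 17 at 34197721 to 34201454 (+ strand), held 51.0, 29.3 and 43.4 FPKM in tumour neutrophils and 34.0, 38 and 35.0 FPKM in WT neutrophils. Its tumour libraries lay on both sides of the WT ones, and it passed only without tumour replicate 7, at 0.39 (adjusted p = 0.0241).

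In macrophages Psmb8 was the inducible subunit that passed. Tumour macrophages held 153, 168 and 116 FPKM of it and WT macrophages 99.1 and 93.5 FPKM, all tumour libraries being above both WT ones. The log2 change was 0.57 (SE 0.17, adjusted p = 0.0335). The adjusted p was 0.0928 without tumour replicate 1, 0.0736 without tumour replicate 2, 0.134 without WT replicate 1 and 0.177 without WT replicate 2, and the call also went under 3 other settings. Psmb9 held 94.7, 102 and 64.7 FPKM in tumour macrophages and 63.6 and 64.4 FPKM in WT macrophages. Tumour replicate 3 lay level with the WT libraries, and the log2 change of 0.41 (SE 0.19) had an adjusted p of 0.139, against 0.61 with an adjusted p of 0.000911 without that library. Psmb10 lay at 55.9 to 60.6 FPKM in tumour macrophages and 60.7 to 66.2 FPKM in WT macrophages, a log2 change of -0.11 (adjusted p = 0.398).

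Epithelial cells showed a rise of Psmb10, with 38.5, 34.8 and 43.2 FPKM in tumour and 23.9, 26.5 and 20.4 FPKM in WT. The groups did not overlap, and the log2 change was 0.70 (SE 0.14, adjusted p = 0.02). Without tumour replicate 9 or 11, or WT replicate 8 or 10, its adjusted p was between 0.0609 and 0.088, with a log2 change of 0.60 to 0.71. Psmb8 at 31.2 to 45.1 FPKM in tumour and 23.2 to 33.5 FPKM in WT, and Psmb9 at 17.5 to 28.7 FPKM in tumour and 23.5 to 26.6 FPKM in WT, overlapped between the groups and did not pass. None of the 3 passed in total lung cells, although the Psmb8 ranges were apart, at 99.8 to 130 FPKM in tumour and 75.4 to 98.1 FPKM in WT (log2 change 0.37, adjusted p = 0.07).

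The ratio of each inducible subunit to the constitutive subunit it replaces gives a measure that does not change when a library is scaled as a whole. It was computed per library, and group values are geometric means. In neutrophils Psmb9/Psmb6 was 0.984, 0.678 and 0.934 in tumour libraries, against 2.27, 2.14 and 2.69 in WT libraries. Inducible message thus exceeded constitutive message in every WT library and in no tumour library. The log2 difference of the ratio was -1.47 (SE 0.20). Psmb8/Psmb5 in neutrophils was 1.04, 0.791 and 0.907 in tumour and 2.20, 1.60 and 1.46 in WT, a log2 difference of -0.93 (SE 0.21). Psmb10/Psmb7 was the exception, at 0.452, 0.310 and 0.420 in tumour neutrophils and 0.276, 0.291 and 0.289 in WT neutrophils. Total lung cells were lower in tumour for each pair, with means of 1.16 in tumour and 1.74 in WT for Psmb8/Psmb5, 0.942 and 1.36 for Psmb9/Psmb6, and 0.534 and 0.725 for Psmb10/Psmb7, and no overlap in any of them. Over the 15 ratios in 5 preparations, all tumour libraries lay below all WT libraries in 8 and above them in 1, and ranges overlapped in 6. Among single genes, tumour and WT libraries did not overlap for 46.5% to 66.3% of all genes tested, depending on the preparation. The count is therefore not particular to these ratios. None of the 15 passed: the exact two-sided permutation test over libraries cannot go below p = 0.1 with 3 against 3 libraries, 0.2 with 3 against 2 and 0.333 with 2 against 2, and the lowest Benjamini-Hochberg value was 0.25.

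**Figure D3:**
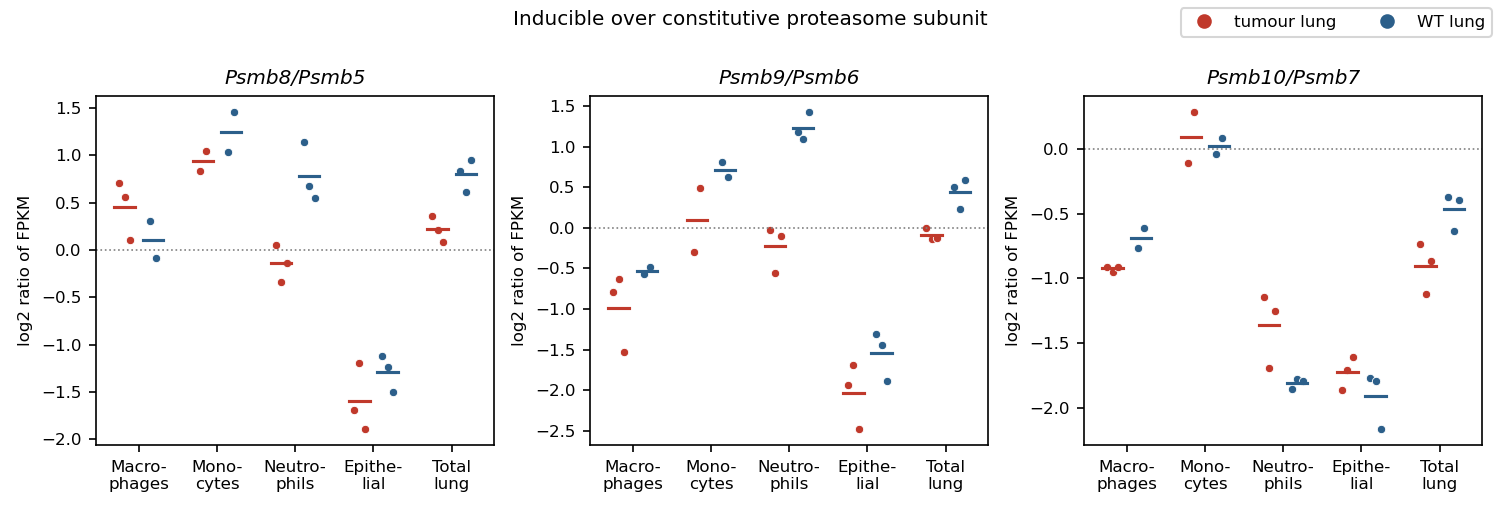
Log2 of the FPKM ratio of Psmb8 to Psmb5, Psmb9 to Psmb6 and Psmb10 to Psmb7 in each library, tumour left of WT in each preparation, with bars for group means and a dotted line where both messages are equal. In neutrophils the tumour points of Psmb9/Psmb6 are ratios of 0.678 to 0.984 and lie below the line, the WT points are ratios of 2.14 to 2.69 and lie above it, and epithelial ratios do not exceed 0.46.

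The denominators moved too, and not every numerator did. In total lung cells Psmb5 rose by 0.94, Psmb6 by 0.75 and Psmb7 by 0.685, and each passed in limma. Psmb8, Psmb9 and Psmb10 had higher means in tumour there, with log2 changes of 0.37, 0.23 and 0.25, and did not pass. In neutrophils Psmb8 did not pass either, with a log2 change of 0.17 (limma adjusted p = 0.447). Psmb5 was at 48.9, 37.0 and 47.9 FPKM in tumour neutrophils and 15.5, 23.7 and 24 FPKM in WT neutrophils, a log2 change of 1.06 (SE 0.18, adjusted p = 0.00133). Psmb6 rose by 0.93 (SE 0.10, adjusted p = 0.000148) and Psmb7 by 0.73 (SE 0.11, adjusted p = 0.000551) in the same cells. In macrophages Psmb6 rose by 0.87 (SE 0.11, adjusted p = 0.00124) while Psmb5 and Psmb7 did not pass. Across preparations, epithelial cells had the lowest mean Psmb8/Psmb5, at 0.331 in tumour and 0.409 in WT, and Psmb9/Psmb6, at 0.244 in tumour and 0.343 in WT. For Psmb10/Psmb7, WT neutrophils at 0.276 to 0.291 lay within the range of WT epithelial cells, 0.223 to 0.294. Monocytes had the highest Psmb8/Psmb5 in tumour lung, at 1.92, with 2.38 in WT monocytes. In WT lung Psmb9/Psmb6 was higher in neutrophils, at 2.36, than in monocytes, at 1.64.

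Tap1 and Tap2 encode the 2 chains of the peptide transporter, and Tap1 passed in macrophages and neutrophils while Tap2 passed in no preparation. Tap1 lies on chromosome 17 at 34187553 to 34197225 (+ strand), head to head with Psmb9. Tumour macrophages held 50.2, 52.7 and 38.4 FPKM of Tap1 and WT macrophages 25.2 and 24 FPKM. Each tumour library was above both WT libraries, and the log2 change was 0.90 (SE 0.15, adjusted p = 0.00405). In neutrophils Tap1 stood at 25.2, 13.1 and 18.5 FPKM in tumour and at 34.7, 31.2 and 30.3 FPKM in WT, again without overlap but in the opposite direction. It fell by 0.78 in log2 units (SE 0.20, adjusted p = 0.00966). Both calls were kept under every alternative tried. Tap2, on chromosome 17 at 34203527 to 34216321 (+ strand), lay at 48.0 to 56.6 FPKM in tumour macrophages and 45.9 to 46.6 FPKM in WT macrophages (log2 change 0.17, SE 0.10, adjusted p = 0.232). In neutrophils it lay at 37.3 to 52.4 FPKM in tumour and 40.5 to 42.0 FPKM in WT (0.10, SE 0.13, adjusted p = 0.539). Neither gene passed in monocytes, epithelial cells or total lung cells, except that after quantile normalization Tap2 fell by 0.34 in total lung cells (adjusted p = 0.0324). A difference between the Tap1 and Tap2 changes was not tested. Tap1 and Psmb9 share 212 bases on opposite strands, and whether counting used strand is not given in the sources used here, so reads of that stretch cannot be assigned to either.

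Tapbp encodes tapasin, which bridges TAP and the empty heavy chain, and it was higher in tumour in 3 preparations. It lies on chromosome 17 at 33915899 to 33929292 (+ strand). Tumour macrophages held 151, 144 and 160 FPKM and WT macrophages 83.9 and 83.1 FPKM, far apart for the small spread in each group. The log2 change was 0.85 (SE 0.09, adjusted p = 0.000728) and was called under all 13 alternatives. Neutrophils held 125, 101 and 110 FPKM in tumour and 91.5, 87.2 and 81.5 FPKM in WT, a log2 change of 0.36 (SE 0.12, adjusted p = 0.0259) and thus opposite to Tap1 and B2m in the same cells. Total lung cells held 117, 93.9 and 111 FPKM in tumour and 79.2, 77.6 and 83.6 FPKM in WT, a log2 change of 0.41 (SE 0.11, adjusted p = 0.0211). In neither did the groups overlap, as was also so in epithelial cells, at 82.7 to 89.1 FPKM in tumour and 66.9 to 70.8 FPKM in WT, where the adjusted p was 0.0708, and 0.0219 after upper-quartile scaling. In neutrophils the adjusted p was 0.103 without tumour replicate 6, 0.0647 without tumour replicate 8, 0.0602 without WT replicate 6 and 0.0648 without WT replicate 7, and after quantile normalization the change was 0.67 (0.00085). In total lung cells it was 0.061 without tumour replicate 12, 0.0565 without tumour replicate 14, 0.074 without WT replicate 11 and 0.0684 without WT replicate 12, and after quantile normalization the change there was 0.13 (adjusted p = 0.279).

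Erap1, the aminopeptidase that trims peptides to the length class I molecules hold, rose modestly in both myeloid populations that had calls. It lies on chromosome 13 at 74639568 to 74693201 (+ strand). Tumour macrophages held 20.4, 22.8 and 21.4 FPKM against 16.9 and 16.2 FPKM in WT macrophages, and tumour neutrophils 7.17, 5.16 and 7.36 FPKM against 4.65, 3.15 and 4.20 FPKM in WT neutrophils. Tumour libraries lay above WT libraries in both. The log2 change was 0.36 (SE 0.10, adjusted p = 0.0311) in macrophages and 0.60 (SE 0.17, adjusted p = 0.0139) in neutrophils. In macrophages the call held under 6 of 13 alternatives and was lost without tumour replicate 1 or 2 or either WT replicate, with adjusted p of 0.0593 to 0.186. In neutrophils it was lost without tumour replicate 6 (adjusted p = 0.0531) or 8 (0.057) and after quantile normalization (0.0581), and with a pseudocount of 5 the change was 0.36. Epithelial cells had 11.8 to 15.8 FPKM in tumour and 10.4 to 15.3 FPKM in WT, which overlapped.

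B2m encodes beta-2 microglobulin, the light chain that every class I heavy chain needs. It lies on chromosome 2 at 122147686 to 122153083 (+ strand). Tumour macrophages held 3382, 3438 and 3595 FPKM, against 1673 and 1581 FPKM in WT macrophages. The ratio of means was 2.13 with little spread in either group, and the log2 change was 1.09 (SE 0.14, adjusted p = 0.00137), or 0.58 after quantile normalization, with the call kept. Neutrophils held 1602, 1010 and 1622 FPKM in tumour and 2548, 2544 and 2084 FPKM in WT. All tumour libraries lay below all WT libraries, and B2m fell by 0.79 in log2 units (SE 0.21, adjusted p = 0.00969), a call kept under all 14 alternatives. Epithelial cells went up, with 1101, 987 and 795 FPKM in tumour and 608, 567 and 546 FPKM in WT. The groups did not overlap, and the log2 change was 0.73 (SE 0.16, adjusted p = 0.0237). This call was lost without tumour replicate 9 (adjusted p = 0.102), WT replicate 8 (0.0765), WT replicate 9 (0.06) or WT replicate 10 (0.0794), and without the filter on low values (0.0537). In total lung cells B2m was 2798, 1817 and 2624 FPKM in tumour and 2059, 1933 and 2057 FPKM in WT, and in monocytes 2881 and 2914 FPKM in tumour and 2854 and 2674 FPKM in WT. The tumour total libraries spread around the WT ones, and neither comparison passed.

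Whether the tumour effect itself differed between preparations was tested with an interaction term in a fit of all 10 groups. Between macrophages and neutrophils it differed for 6 of the 9, where 39.2% of all 12642 genes passed. Nlrc5 had the largest difference, 2.67 in log2 units (SE 0.25, adjusted p = 4.821e-08), followed by B2m with 1.88 (SE 0.27, adjusted p = 1.058e-05) and Tap1 with 1.67 (SE 0.29, adjusted p = 8.343e-05). After quantile normalization the B2m difference was 1.15 (adjusted p = 0.00238). Psmb9 and Tapbp also passed with a higher effect in macrophages, calls that were lost after quantile normalization, and Psmb10 passed with a higher effect in neutrophils. Between epithelial cells and macrophages 3 passed, where 37.3% of genes did, 20.2% higher in epithelial cells and 17.1% lower: the effect was higher in epithelial cells for Psmb10 and lower for Tapbp and Nlrc5. Here the Tapbp call was lost after upper-quartile scaling. Between epithelial cells and neutrophils 3 passed, all higher in epithelial cells, where 38.8% of genes did, 19.5% higher and 19.2% lower. These were B2m, Tap1 and Nlrc5. The macrophage and neutrophil comparison had 17.7% of genes higher and 21.5% lower. These comparisons share samples, and the 2 macrophage gates differ in CD11b.

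The wider pathway was followed in 6 companion lists. The first, class I heavy chains and class I-like molecules, is the least complete: 6 of 19 listed genes were in the table, and the classical chains H2-K1 and H2-D1 were not analysed here. In neutrophils all 5 tested genes of this list were lower in tumour, where 25.8% of all genes were. H2-Q10 averaged 151 ± 18.7 FPKM in tumour and 334 ± 27.2 FPKM in WT neutrophils (SD, n = 3 each), and H2-T23, a class I-like molecule recognised by CD94/NKG2 receptors, 59.5 ± 15.2 FPKM in tumour and 120 ± 5.09 FPKM in WT. The other 3, named after their values were seen, were Cd1d1, H2-M3 and Fcgrt, all below 5 FPKM on average. In macrophages H2-T23 rose by 1.09 (SE 0.09) and H2-M3 by 1.05 (SE 0.10), while Fcgrt, the neonatal Fc receptor, fell by 1.58 (SE 0.10). Fcgrt also fell in epithelial cells, by 0.66 (SE 0.16), as the only gene of 5 tested there, and H2-Q10 rose by 1.74 (SE 0.28) in total lung cells as the only one of 6. H2-Q10 has near-identical relatives with which reads may be shared, so its values are uncertain.

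The constitutive core of the proteasome was followed in a list of 20S subunits. Of its 14 genes, 13 were higher in tumour neutrophils and 13 in tumour total lung cells, 6 in tumour epithelial cells and 1 in tumour macrophages, and none was lower. Among all genes 33.3% were higher in neutrophils, 22.1% in total lung cells, 14.9% in epithelium and 20.3% in macrophages. The log2 changes of the 14 ran between -0.04 and 1.28 in epithelial cells and between -0.26 and 0.87 in macrophages. The median log2 change of the list was 0.60 in neutrophils and 0.60 in total lung cells, where all genes had 0.11 and -0.01. Psma5 averaged 84.2 ± 21.5 FPKM in tumour and 33.4 ± 2.51 FPKM in WT epithelial cells (SD, n = 3 each), a log2 change of 1.28 (SE 0.20, adjusted p = 0.00883). Proteasome activators and assembly factors (9 genes) had 3 higher and 1 lower in macrophages, 4 higher and 1 lower in neutrophils, 1 higher in epithelial cells and 4 higher in total lung cells. These counts lie near or below the 37.9%, 59.1%, 23.8% and 42.5% of all genes that passed in those 4 preparations. Psme2, a subunit of the PA28 activator that interferon gamma induces, rose by 0.70 (SE 0.21) in macrophages and by 0.50 (SE 0.13) in total lung cells. Psmg2, an assembly chaperone, rose by 1.14 (SE 0.20) in neutrophils and fell by 0.56 (SE 0.14) in macrophages.

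Loading chaperones and peptidases (12 genes) had 1 higher in macrophages, 4 higher and 2 lower of 11 tested in neutrophils, 5 higher in epithelial cells and 4 higher in total lung cells. Of all genes 37.9% passed in macrophages, 59.1% in neutrophils, 23.8% in epithelium and 42.5% in total lung cells, so that the macrophage count is below that share. Lap3, a leucine aminopeptidase, rose by 1.04 (SE 0.14) in macrophages, 0.57 (SE 0.16) in epithelial cells and 0.92 (SE 0.14) in total lung cells. Calr, the chaperone calreticulin, averaged 391 ± 67.8 FPKM in tumour and 233 ± 5.03 FPKM in WT epithelial cells, a log2 change of 0.73 (SE 0.15, adjusted p = 0.0206). In neutrophils Canx, which encodes the chaperone calnexin, rose by 0.95 (SE 0.16), while Nrd1 fell by 0.62 (SE 0.13) and Hspa5 by 0.51 (SE 0.14).

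Transcription factors of class I genes (16 genes) had 6 higher and 2 lower in macrophages, 4 higher and 4 lower in neutrophils, 1 higher in epithelial cells and 3 lower in total lung cells. Against the 59.1%, 23.8% and 42.5% of all genes that passed in neutrophils, epithelium and total lung, the last 3 counts are below the background, and in macrophages 37.9% of genes passed. Irf9, part of the complex through which type I interferon acts, averaged 12.9 ± 2.74 FPKM in tumour and 32.6 ± 2.49 FPKM in WT neutrophils (SD, n = 3 each). It fell by 1.29 there (SE 0.16, adjusted p = 0.000219), by 0.45 (SE 0.15) in total lung cells, and rose by 0.70 (SE 0.11) in macrophages. Irf8 fell by 1.48 (SE 0.29) in neutrophils and Stat2 rose by 0.81 (SE 0.12). Irf1 rose by 0.75 (SE 0.09) in macrophages and by 0.84 (SE 0.19) in epithelial cells, and Nfkb1 by 0.86 (SE 0.21) in macrophages. Irf2 fell by 0.47 (SE 0.12) and Rfx5 by 0.47 (SE 0.15) in total lung cells.

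Interferon ligands, receptors and signalling genes (11 genes) had 7 higher in macrophages, 3 higher and 4 lower of 10 tested in neutrophils, 2 higher of 10 tested in epithelial cells and 6 higher and 2 lower in total lung cells. The shares of all genes were 20.3% higher in macrophages, 59.1% in either direction in neutrophils, 23.8% in epithelium and 42.5% in total lung cells. Ifnb1, the interferon beta gene, averaged 267 ± 7.57 FPKM in tumour macrophages (SD, n = 3) and was listed at 0 in both WT macrophage libraries, so no fold is given. Socs3, a feedback inhibitor of cytokine signalling, averaged 247 ± 29.7 FPKM in tumour and 15.6 ± 3.35 FPKM in WT macrophages and rose in 4 preparations, by 3.91 in macrophages, 2.0 in total lung, 1.59 in neutrophils and 1.49 in epithelium. Jak2, a kinase that associates with cytokine receptors, rose by 1.65 (SE 0.34) in macrophages, 1.44 (SE 0.17) in neutrophils and 1.09 (SE 0.23) in total lung cells. Socs1 averaged 3.74 ± 0.914 FPKM in tumour and 12.5 ± 3.50 FPKM in WT neutrophils and fell by 1.5 (SE 0.21). Ifngr2, a chain of the interferon gamma receptor, rose by 1.36 (SE 0.20) in epithelial cells. No gene of any of the 6 lists passed in monocytes, where no gene of the table did.

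**Figure D4:**
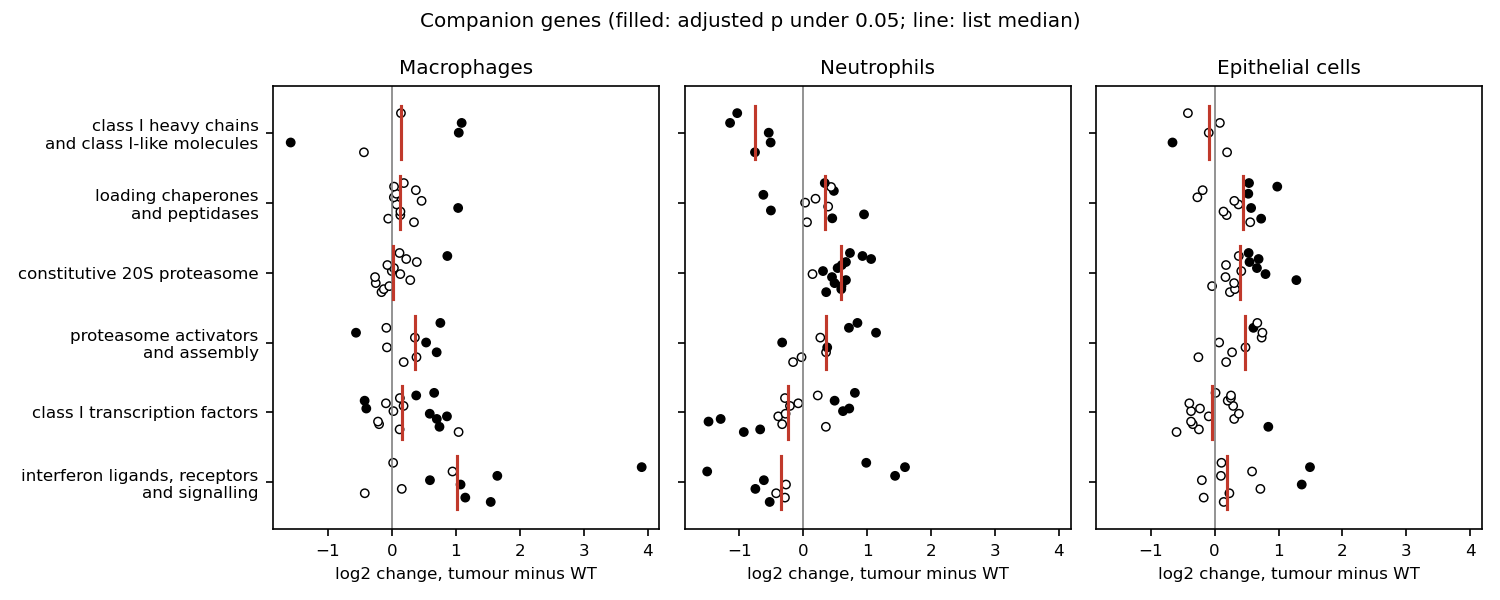
Log2 change of FPKM + 1 (tumour minus WT) of each tested gene of the 6 companion lists in macrophages, neutrophils and epithelial cells, filled where the adjusted p was under 0.05 in limma, with a line at the list median. Genes listed at 0 in a whole group are left out, so Ifnb1 is not drawn in macrophages or epithelial cells. All points of the class I heavy chain list lie left of 0 in neutrophils, and those of the constitutive 20S proteasome right of it.

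Over the 27 libraries the 9 genes fell into loosely shared patterns, given as a description since libraries share preparation and sorting. Tap1 followed Nlrc5 most closely, with Pearson's r = 0.974 on log2(FPKM + 1), then Psmb9 with r = 0.943, and Psmb8 followed Psmb9 with r = 0.933. Erap1 stood apart from B2m (r = 0.186) and went with Psmb10 (r = 0.847), and Tapbp had no partner above its r of 0.644 with B2m. Among 11564 genes compared, those most like B2m were Apobec1 (r = 0.943), Unc93b1 (0.941) and Map3k14 (0.921), and those most like Tap1 were Ccl5 (0.932), Itgb7 (0.921) and Klrk1 (0.915). Nlrc5 was closest to Il2rg (0.943), Arl5c (0.932) and Clec2i (0.926), and Tap2 to Rinl (0.934), Pik3cd (0.925) and Gbp7 (0.921). For Psmb8 these were Batf3 (0.955), Cd48 (0.955) and Aif1 (0.950), for Psmb9 Ly86 (0.936), Kmo (0.934) and Myo1g (0.930), and for Psmb10 Fbl (0.969), Noc2l (0.965) and Tyk2 (0.961). Erap1 went with Glrx3 (0.964), Nans (0.963) and Pigk (0.957), and Tapbp with Akirin1 (0.856), Slc37a2 (0.834) and Gnpda1 (0.820).

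Markers of other cell types moved with several of these results, and in bulk samples fewer cells of a type and less RNA per cell cannot be told apart. In neutrophils, beside the lower B2m, Tap1, Psmb9 and Nlrc5, the summed FPKM of all 4 B cell markers was 7.60 to 54.9 in tumour and 162 to 232 in WT. That of all 6 epithelial markers was 36.7 to 83.9 in tumour and 659 to 3080 in WT, carried by Sftpc, Sftpb and Scgb1a1. Epithelial markers did not all run that way: Krt18 averaged 18.6 ± 1.78 FPKM in tumour and 2.84 ± 0.327 FPKM in WT neutrophils, Cdh1 6.00 ± 2.19 FPKM in tumour and 2.04 ± 1.09 FPKM in WT, and Epcam was at 0.938 FPKM in tumour and 0.919 FPKM in WT (SD, n = 3 each). The sum of 5 of 6 dendritic cell markers, 5.16 to 11 in tumour and 30.2 to 61.3 in WT, is mostly Ccr7. Macrophage markers (4 of 6) ran higher, beside the higher Psmb10, Tapbp and Erap1. They summed to 149 to 242 in tumour and 70.7 to 82.6 in WT, mostly through Itgax. The part of any of these in the results was not tested in neutrophils. None of these markers was at 0 in a whole group.

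The neutrophil markers themselves summed to 24800 to 30500 FPKM in tumour and 27900 to 30400 FPKM in WT, but S100a9 averaged 15800 FPKM in tumour and was listed at 0 in all WT neutrophil libraries. The other 5 had lower means in tumour. S100a8 averaged 10300 ± 732 FPKM in tumour and 22790 ± 1376 FPKM in WT, Retnlg 756 ± 54.9 FPKM in tumour and 3535 ± 220 FPKM in WT, and Csf3r 1150 ± 178 FPKM in tumour and 1807 ± 222 FPKM in WT (SD, n = 3 each), with no overlap. Mmp9, at 319 to 454 FPKM in tumour and 433 to 578 FPKM in WT, and Cxcr2, at 90.3 to 115 FPKM in tumour and 101 to 126 FPKM in WT, overlapped.

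In macrophages, beside the higher Nlrc5, B2m, Tap1 and Tapbp, the macrophage markers themselves ran both ways. C1qa averaged 1409 ± 259 FPKM in tumour and 5.46 ± 4.31 FPKM in WT, and Itgax 458 FPKM in tumour and 347 FPKM in WT. Marco was at 9.23 ± 3.70 FPKM in tumour and 164.5 ± 12.8 FPKM in WT, and Mrc1 at 91.9 FPKM in tumour and 233.5 FPKM in WT. Endothelial markers (4 of 4) summed to 3.77 to 7.99 FPKM in tumour and 37.7 to 39.1 FPKM in WT. Monocyte markers (3 of 5) summed to 150 to 188 FPKM in tumour and 13.8 to 27.1 FPKM in WT. Most of that sum is Itgam, the gene of the gate marker CD11b, at 127 ± 13 FPKM in tumour and 1.30 ± 0.144 FPKM in WT, while Ccr2 was at 21.5 ± 3.53 FPKM in tumour and 19.0 ± 9.53 FPKM in WT and F13a1 at 15.9 ± 10.2 FPKM in tumour and 0.16 ± 0.0553 FPKM in WT (SD, n = 3 and 2). Dendritic cell markers (5 of 6) summed to 95.9 to 420 FPKM in tumour and 58.3 to 65.8 FPKM in WT, through Ccr7 at 85.4 to 382 FPKM in tumour and 24.2 to 29.9 FPKM in WT. The lineage markers Xcr1, at 0.577 FPKM in tumour and 4.96 FPKM in WT, and Clec9a, at 2.12 FPKM in tumour and 12.8 FPKM in WT, ran the other way, and the ranges of Flt3 and Zbtb46 overlapped. Neutrophil markers (6 of 6) summed to 180 to 545 FPKM in tumour and 42.5 to 65.9 FPKM in WT, and epithelial markers to 107 to 729 FPKM in tumour and 1130 to 1250 FPKM in WT. Cxcr2 did not follow the neutrophil sum, at 2.27 ± 1.09 FPKM in tumour and 3.66 ± 0.814 FPKM in WT. Nor did all epithelial markers run lower. Krt18 was at 4.23 ± 1.93 FPKM in tumour and 0.807 ± 0.166 FPKM in WT, and Cdh1 at 17.45 ± 5.60 FPKM in tumour and 16.8 ± 0.524 FPKM in WT. The part of any of these in the results was not tested.

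In epithelial cells, beside the higher B2m and Psmb10, macrophage markers (4 of 6) summed to 18.6 to 94.5 FPKM in tumour and 3.56 to 13.8 FPKM in WT. Mrc1, Marco and Itgax carried that difference. C1qa did not follow it, at 0.931 to 3.78 FPKM in tumour and 1.14 to 2.685 FPKM in WT. Endothelial markers (4 of 4) summed to 6.04 to 31.8 FPKM in tumour and 98 to 214 FPKM in WT. B cell markers summed to 27.8 to 40.2 FPKM in tumour and 77.8 to 135 FPKM in WT. Epithelial markers summed to 2280 to 3100 FPKM in tumour and 2870 to 12600 FPKM in WT, with Krt18 at 453 ± 126 FPKM in tumour and 178 ± 16.9 FPKM in WT and Scgb1a1 at 1952 ± 382 FPKM in tumour and 7991 ± 5022 FPKM in WT (SD, n = 3 each). Epcam was at 91.1 ± 6.24 FPKM in tumour and 87.1 ± 8.70 FPKM in WT, while Sftpc and Sftpb were listed at 0 in all epithelial libraries of both groups. The part of any of these in the epithelial results was not tested.

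In total lung cells, beside the higher Tapbp and the lower subunit ratios, most marker sums were apart. Macrophage markers summed to 461 to 837 FPKM in tumour and 84.6 to 108 FPKM in WT, and neutrophil markers to 3630 to 9140 FPKM in tumour and 1820 to 2650 FPKM in WT. The neutrophil marker Retnlg did not follow that sum, averaging 355 ± 235 FPKM in tumour and 475 ± 309 FPKM in WT (SD, n = 3 each). B cell markers summed to 159 to 433 FPKM in tumour and 715 to 1290 FPKM in WT, and endothelial markers to 47.7 to 123 FPKM in tumour and 259 to 552 FPKM in WT. T and NK cell markers summed to 221 to 246 FPKM in tumour and 305 to 361 FPKM in WT, and dendritic cell markers to 106 to 214 FPKM in tumour and 262 to 473 FPKM in WT. Nkg7 and Ncr1 carried the T and NK difference, while the ranges of Cd3e, Cd3d and Cd8a overlapped. The dendritic cell sum is mostly Ccr7, and the ranges of Flt3, Xcr1 and Zbtb46 overlapped. Sftpc was listed at 0 in all WT total lung libraries. The part of these cells in the results was not tested. Fragment counts were not analysed here, so depth is known only as a rough relative value, from 0.837 to 1.58 times that of tumour macrophage replicate 1. It was 1.26 to 1.58 in tumour and 0.837 to 0.969 in WT epithelial libraries, and 1.10 to 1.22 in tumour and 0.857 to 0.962 in WT neutrophil libraries. Between 8560 and 11420 genes reached 1 FPKM in a library, and replicates of a group correlated across genes at r = 0.964 to 0.997.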

How the data were processed

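Lungs were dissociated and sorted, RNA was isolated with the PicoPure kit and libraries were made with TruSeq RNA Sample Prep v2, per the labels' protocols. CASAVA 1.8.2, TopHat2, Cufflinks and Cuffdiff with mm10 (GRCm38) are named in the submitters' processing notes, without settings. The FPKM values were used as the authors deposited them. Further work used Python 3.11.15, numpy 2.4.6, pandas 2.3.3, scipy 1.17.1, matplotlib 3.10.9 and R 4.3.3.

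A gene was tested where 2 or more libraries of the comparison reached 1 FPKM. Tests were run on log2(FPKM + 1) with limma 3.58.1 (intensity trend, empirical Bayes), with Benjamini-Hochberg adjustment over all genes tested and a threshold of 0.05. The code was tested on simulated data. Ratios were tested over libraries by an exact permutation test, whose smallest two-sided p with 3 against 2 libraries is 0.2. Alternatives were pseudocounts of 0.1 and 5, 1 model over all 10 groups, upper-quartile scaling or quantile normalization, omitting the filter or raising it to 5 FPKM, a replicate block, and each library left out.

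The members and lists were chosen with earlier results of these data known. Per list and preparation, the text names up to 3 called companions with the largest change and a group mean of at least 5 FPKM, and Psmb5, Psmb6 and Psmb7 in any case. It also names the 3 genes most correlated with each member. Whether each library is a separate animal is not stated in the labels. The p-values therefore reflect only how these libraries vary, which may be technical. Relative depth was estimated from the spacing of values under 0.2 FPKM. Without counts, no counting interval can be given. Gene positions are from GENCODE M21, while promoter windows follow RefSeq starts. Members overlap other genes, such as B2m with Patl2 and Tapbp with Zbtb22, and strand use in counting is not given in the sources used here.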

Additional observations from a re-analysis of the deposited data

Results flagged for a closer look

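The tumour effect differed between preparations for these genes by an interaction term (limma, 12642 genes), given as differences of log2 changes. Of all genes 39.2% passed for macrophages minus neutrophils, 37.3% for epithelial cells minus macrophages and 38.8% for epithelial cells minus neutrophils. The macrophage gates of tumour and WT lung differ in CD11b, so tumour and gate cannot be told apart where macrophages are used. Macrophages minus neutrophils gave 2.67 for Nlrc5 (SE 0.25, adjusted p = 4.821e-08), 1.88 for B2m (SE 0.27, adjusted p = 1.058e-05, and 1.15 after quantile normalization), 1.67 for Tap1 (SE 0.29, adjusted p = 8.343e-05), 0.90 for Psmb9 (SE 0.27, adjusted p = 0.0096), 0.49 for Tapbp (SE 0.14, adjusted p = 0.00885) and -1.23 for Psmb10 (SE 0.23, adjusted p = 0.00017). The Psmb9 and Tapbp calls were lost after quantile normalization. Epithelial cells minus macrophages gave -1.82 for Nlrc5 (SE 0.25, adjusted p = 8.198e-06), -0.55 for Tapbp (SE 0.14, adjusted p = 0.00422, call lost after upper-quartile scaling) and 0.81 for Psmb10 (SE 0.23, adjusted p = 0.00739). Epithelial cells minus neutrophils gave 1.52 for B2m (SE 0.25, adjusted p = 8.13e-05), 1.02 for Tap1 (SE 0.27, adjusted p = 0.00505) and 0.85 for Nlrc5 (SE 0.24, adjusted p = 0.00689).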

How the results depend on the processing

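The macrophage calls of B2m, Tap1, Tapbp and Nlrc5 and the neutrophil calls of B2m, Tap1, Psmb10 and Nlrc5 held under every alternative run. With each library left out in turn, the number of the 9 genes called was 4 to 7 in macrophages, 0 in monocytes, 5 to 8 in neutrophils, 0 to 2 in epithelium and 0 to 3 in total lung cells. For the interactions it was 6 throughout (macrophages minus neutrophils), 3 to 5 (epithelial minus macrophages, 5 without tumour macrophage replicate 3) and 3 to 5 (epithelial minus neutrophils, 5 without tumour neutrophil replicate 7).

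Shared replicate numbers did not pair libraries, with correlations of deviations of -0.17 to 0.08. In the replicate block, libraries whose number is not shared by tumour and WT drop out of the tumour term. Counts under the block therefore also reflect fewer libraries, and calls lost or gained cannot be read as an effect of pairing alone. With the replicate block, 7 genes were called in macrophages, 4 in neutrophils (1 higher, 3 lower), 0 in epithelium and 0 in total lung cells. It ended the calls of Tapbp, Psmb9 and Erap1 in neutrophils, B2m and Psmb10 in epithelial cells and Tapbp in total lung cells. Over all genes it left 1904 higher and 1660 lower in neutrophils, 307 and 90 in epithelium and 1285 and 1138 in total lung. Monocytes leave no residual degrees of freedom for it. The block turned uncalled epithelial changes to 0.01 for Tap2 and 0.13 for Psmb9.

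The values that changed sign were not called. Quantile normalization gave -0.39 for B2m, -0.032 for Tap1 and -0.003 for Psmb9 in monocytes, -0.017 for Erap1 in epithelial cells, -0.035 for Psmb9 in total lung cells, -0.055 for Tap2 in macrophages minus neutrophils and 0.047 for B2m in epithelial minus macrophages. Upper-quartile scaling gave 0.018 for Tap2 and 0.023 for Psmb9 in epithelial cells, 0.03 for Psmb8 in epithelial minus macrophages and 0.11 for Tapbp in epithelial minus neutrophils. Leaving out libraries gave ranges in monocytes of -0.23 to 0.24 for Tap1, -0.087 to 0.32 for Tap2 and -0.11 to 0.24 for Psmb9. They were -0.022 to 0.22 for Tap2 in neutrophils, -0.245 to 0.094 for Psmb9 and -0.12 to 0.13 for Erap1 in epithelial cells, and -0.001 to 0.33 for Erap1 in total lung cells. For interactions they were -0.045 to 0.195 for Tap2 (macrophages minus neutrophils), -0.135 to 0.018 for Tapbp and -0.014 to 0.377 for Psmb8 (epithelial minus neutrophils). Quantile normalization also ended the calls of Tapbp (0.19) and Psmb9 (0.65) in macrophages minus neutrophils, and upper-quartile scaling that of Tapbp (-0.32) in epithelial minus macrophages.

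Over all genes, upper-quartile scaling moved the epithelial split to 2456 higher and 668 lower, from 1765 and 1051 as deposited, and the median log2 change to 0.13, from 0.01. It gave 3380 and 1473 against 2555 and 2165 in epithelial minus macrophages, and 3045 and 1783 against 2466 and 2433 in epithelial minus neutrophils. The macrophage split turned from 2050 higher and 1788 lower to 1705 and 2214 under upper-quartile scaling and 1817 and 2177 under quantile normalization, and that of total lung cells from 2599 and 2394 to 2304 and 2736 and to 2574 and 2620. The fit of all 10 groups called 2992 higher and 2400 lower in epithelium. In monocytes 499 genes were higher and 575 lower in the fit of all 10 groups, with none of the 9 among them. The cause of these changes was not tested.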
